A study of Mus musculus with 6 samples.

Results

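The genes described here make, sense and move sterols and fatty acids. They are 43 named genes of the 15035 in the deposited table, chosen with earlier results of these data known and taken by symbol. All 43 were found. They fall into 4 roles: 19 enzymes that lead from acetyl-CoA to cholesterol, 6 genes that sense sterols or carry the response to them, 10 genes of fatty acid synthesis, and 8 genes of sterol transport, storage and the liver X receptors (LXR). Of these, 42 were tested. Nr1h3 stayed below the minimum level for the test.

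RNA-seq was done on a mouse model of acute myeloid leukemia. After 48 h in DMSO, the solvent, or in 4 nM GSK-LSD1, 3 libraries were made of each group. GSK-LSD1 inhibits LSD1 (gene Kdm1a), an enzyme that removes methyl groups from lysines of histone H3. The cells of both groups were bone marrow cells of BALB/c background that expressed mutant CSF3R (a cytokine receptor) and CEBPA (a myeloid transcription factor) from retrovirus, and both grew in IMDM with FBS. The comparison asks which transcripts differ after the inhibitor, in bulk cells, where fewer cells of a type and less RNA per cell cannot be told apart.

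Cells build cholesterol from acetyl-CoA through mevalonate and squalene. SREBP transcription factors switch these enzymes on when sterols in the endoplasmic reticulum are low: the escort protein SCAP then carries the SREBP precursor to the Golgi, where proteases release the active factor, while INSIG proteins hold SCAP back when sterols are plentiful. SREBP1 is best known for fatty acid genes and SREBP2 for sterol genes. LXRs are nuclear receptors for oxysterols that switch on genes of cholesterol export and of reduced uptake, and they are most studied in macrophages and liver.

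All values are read counts per gene divided by 1 factor per library, and are not corrected for gene length. Totals per library were between 9877460 and 10107900, which is 9572640 to 10199500 reads where the smallest value in a library is 1 read. DMSO replicate 3 had the lowest estimated library weight, 0.667 against 0.922 to 1.37 for the other 5. Whether replicates were separate cultures or animals is not stated in the labels, so every p-value reflects only how far these 6 samples spread, and that spread may be technical. "Rose" and "fell" below mean an adjusted p under 0.05 by limma with Benjamini-Hochberg adjustment over the 11588 genes tested, and log2 fold changes are of value + 1, GSK-LSD1 against DMSO. Over all 11588 genes the median was -0.01.

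After 48 h of GSK-LSD1, transcripts of the sterol and fatty acid synthesis genes were mostly lower, and those of transport and LXR genes were mixed. Of the 42 tested genes, 29 fell, against 20.5% of all genes tested, and 3 rose, against 20.6%. Sterol enzymes fell in 16 of 19 cases, sterol sensing genes in 5 of 6 and fatty acid genes in 7 of 10. The 3 rises were Mylip, Npc1 and Npc2, all in the transport and LXR role, where 1 gene, Abcg1, fell. All 3 GSK-LSD1 libraries lay below all 3 DMSO libraries for 30 of the 42 genes, against 24.8% of all genes tested, and above them for 3, against 24.7%. The largest fold changes were those of Scd1, 2.23-fold lower, and Pmvk, 2.07-fold lower, and no other gene fell by more than Acss2, 1.69-fold.

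**Figure D1:**
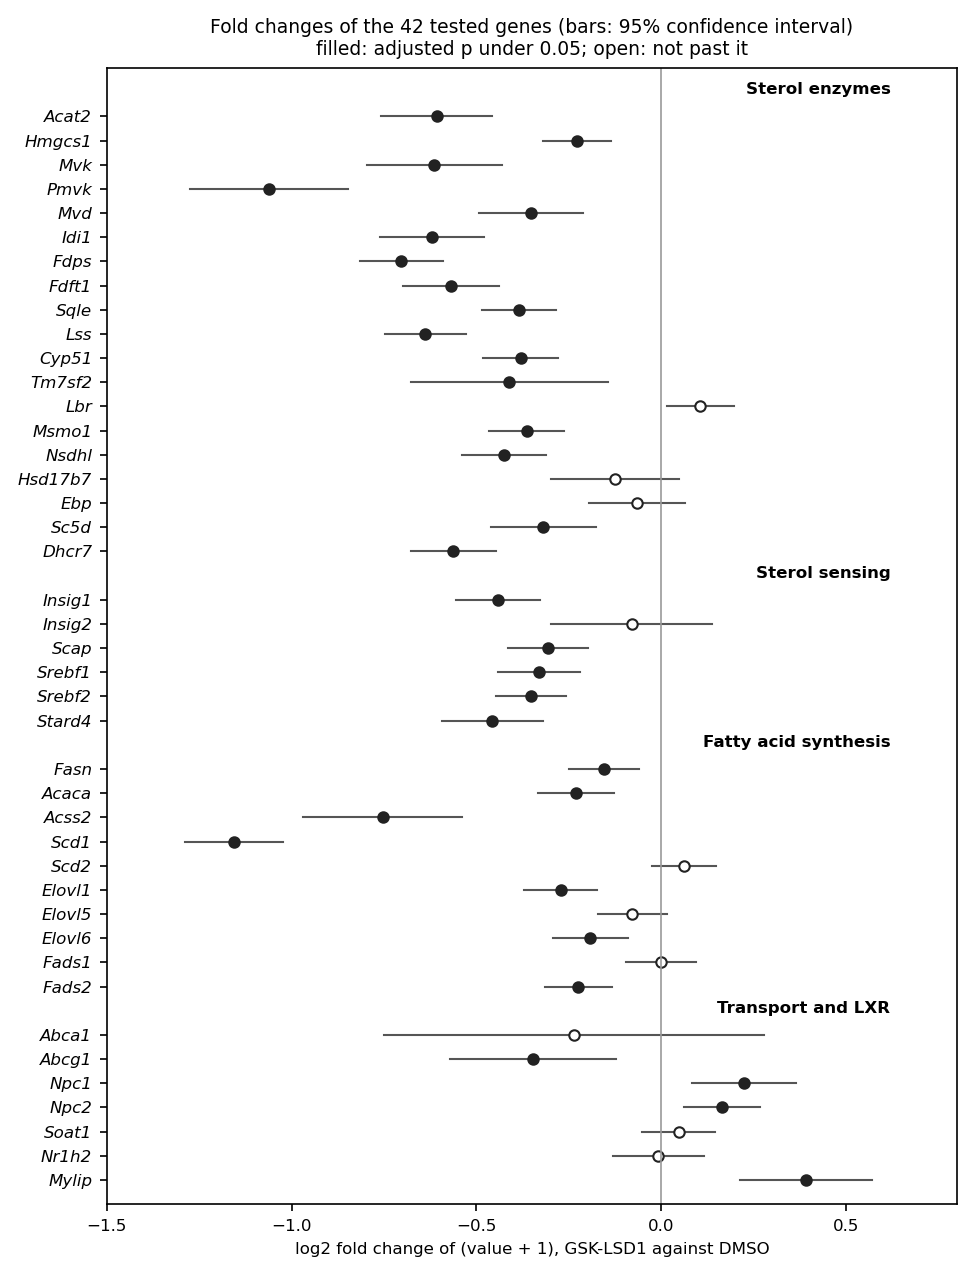
Log2 fold change of value + 1 (x axis) with 95% confidence interval for each of the 42 tested genes (y axis), by role, GSK-LSD1 against DMSO, n = 3 libraries per group. Filled points passed an adjusted p of 0.05. Scd1 (-1.16) and Pmvk (-1.06) lie furthest left and Mylip (0.39) furthest right.

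The early enzymes, which make squalene from acetyl-CoA, all fell, with a median log2 fold change of -0.61. Pmvk, phosphomevalonate kinase (chromosome 3, 89454541 to 89469013, GRCm38), was 306, 337 and 342 with DMSO and 189, 127 and 159.6 with GSK-LSD1. No GSK-LSD1 library came near the DMSO libraries, although replicates 1 and 2 of GSK-LSD1 differed from each other more than those of DMSO did. Its mean went from 328 ± 19.8 to 159 ± 30.7 (SD, n = 3), -1.06 in log2 (standard error 0.105, adjusted p = 2.12e-10 by limma).

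Fdps, which makes farnesyl diphosphate, the branch point to sterols and to protein prenylation (chromosome 3, 89093588 to 89101959), was 1892, 2154 and 1945 with DMSO and 1330.4, 1187 and 1160.1 with GSK-LSD1. The groups were well apart, and the fall was 1.63-fold (log2 fold change -0.70, adjusted p = 5.96e-13 by limma). Idi1, the isomerase that interconverts the isoprenoid building blocks, was 673, 567 and 636 with DMSO and 407, 394 and 416 with GSK-LSD1. The GSK-LSD1 libraries lay close together and below each DMSO library, with a fall of 1.54-fold. Mvk, mevalonate kinase, the step before Pmvk, was 307, 292 and 272 with DMSO and 176, 199 and 193 with GSK-LSD1. It fell 1.53-fold (log2 fold change -0.61, 95% confidence interval -0.80 to -0.43), again without overlap.

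Acat2, the cytosolic thiolase that makes acetoacetyl-CoA, opens the route and fell 1.52-fold, from 555 ± 36.8 to 365 ± 35.1. Fdft1, squalene synthase, the first enzyme committed to sterols, fell 1.48-fold, from 799 ± 25.4 to 539 ± 43.5. Mvd, which decarboxylates mevalonate diphosphate, fell 1.28-fold. The smallest fall among these 8 early enzymes was that of Hmgcs1, HMG-CoA synthase, which was 4343, 4115 and 4588 with DMSO and 3639, 3776 and 3705 with GSK-LSD1. Its groups still did not overlap, and its log2 fold change was -0.23 (adjusted p = 9.39e-05 by limma).

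From squalene onward 8 of 11 enzymes were lower and none higher, with a median log2 fold change of -0.38. Lss, lanosterol synthase, which closes the sterol rings (chromosome 10, 76531588 to 76557138), was 1265, 1202 and 1227 with DMSO and 807, 804 and 760.1 with GSK-LSD1. The GSK-LSD1 libraries were tightly grouped far below DMSO, a fall of 1.56-fold (log2 fold change -0.64, adjusted p = 3.78e-12 by limma). At the other end of the route Dhcr7, which reduces dehydrocholesterol to cholesterol, was 932, 962 and 955 with DMSO and 623, 660.4 and 644 with GSK-LSD1. It too was separated by a wide gap, with a fall of 1.48-fold (adjusted p = 3.16e-10 by limma).

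Between these ends the changes were moderate. Sqle, squalene epoxidase, a slow step of the pathway, fell 1.30-fold, from 1944 ± 16.9 to 1491 ± 75.9, and Cyp51, lanosterol demethylase, fell 1.30-fold, from 2199.7 ± 132 to 1688 ± 49.7. Msmo1 and Nsdhl, which act in turn to remove methyl groups from the sterol ring, fell 1.29-fold and 1.34-fold. Sc5d, a sterol desaturase, had a log2 fold change of -0.32 and fell too. Tm7sf2, a sterol reductase of the endoplasmic reticulum, was 129.9, 137 and 109 with DMSO and 108, 85.9 and 87.6 with GSK-LSD1. The lowest DMSO library and the highest GSK-LSD1 library nearly met, and this call was lost without DMSO replicate 2 (adjusted p = 0.0756) or GSK-LSD1 replicate 2 (0.0562, both by limma).

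The 3 sterol enzymes that did not pass were Lbr, Hsd17b7 and Ebp. Lbr, the lamin B receptor, is a protein of the inner nuclear membrane that carries the same reductase activity as Tm7sf2. It was 4458, 4099 and 4203 with DMSO and 4607, 4415 and 4699.9 with GSK-LSD1, with 1 DMSO library inside the GSK-LSD1 range, a log2 fold change of 0.11 and an adjusted p of 0.0576 by limma. It passed as higher in 4 alternatives: quantile scaling (adjusted p = 0.00337), the same total per library (0.0247), library weights (0.0468) and without DMSO replicate 1 (0.015). Hsd17b7, a ketoreductase of the demethylation steps, had a log2 fold change of -0.12 (95% confidence interval -0.30 to 0.05). Ebp, a sterol isomerase, had one of -0.07 (-0.20 to 0.06), so falls of the size seen for Mvk or Dhcr7 lie outside both intervals.

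**Figure D2:**
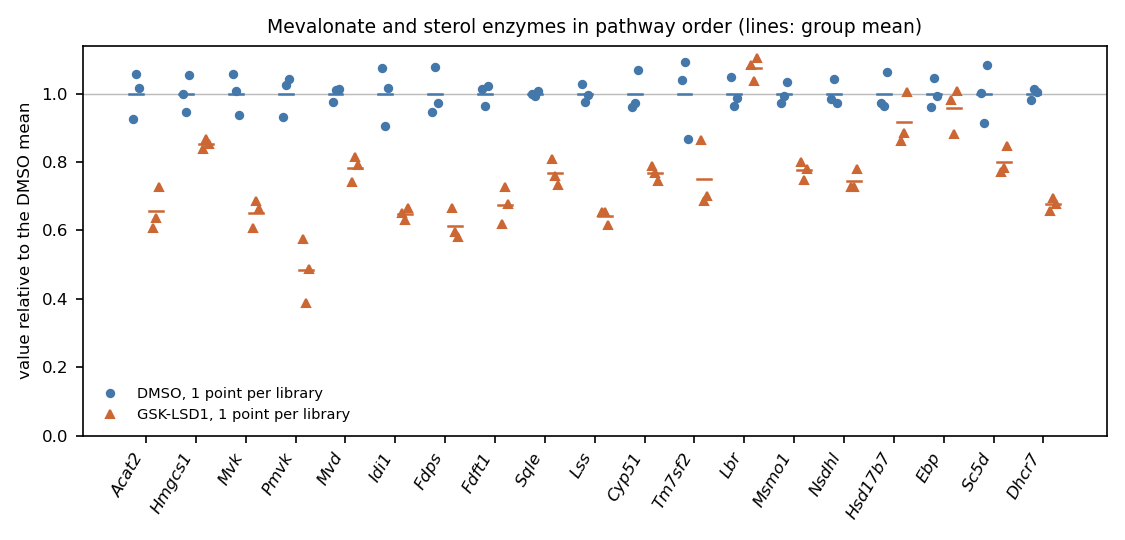
Value in each library divided by the gene's DMSO mean (y axis, starting at 0) for the 19 sterol enzymes in pathway order (x axis), with 3 DMSO and 3 GSK-LSD1 libraries and group means as lines. The GSK-LSD1 points lie below every DMSO point for 16 genes, and overlap or exceed them for Lbr, Hsd17b7 and Ebp.

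Promoter sequence was examined in every role as a description only, and its part in the changes was not tested. The sterol enzymes are known as SREBP genes, whose promoters often pair a sterol regulatory element with a box for the factor NF-Y. RefSeq windows of 250 bases before and 50 after a start (GRCm38.p6) were present for 34 of the 43 genes. The box CCAAT, read on both strands, stood in a window of 15 of 16 sterol enzymes (93.8%), against 43.4% of the 8920 tested genes with a window and 41.1% of all 27025 genes with one. Its carriers include Lbr, Hsd17b7 and Ebp, whose transcripts did not pass, and among the 16 it was missing only from the windows of Acat2. It stood in windows of 4 of 5 sterol sensing genes, 4 of 7 fatty acid genes and 3 of 6 transport genes. The Sp1 box GGGCGG stood in 15 of the 16 enzymes against 69.0% of tested genes, and the E-box CACGTG in 3 against 12.0%. In the other roles the Sp1 box stood in 5 of 5 sterol sensing genes, 3 of 7 fatty acid genes and 4 of 6 transport genes. The E-box stood in 2 of 5, 1 of 7 and 1 of 6 of these.

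The letters TCACNCCAC, a form of the sterol regulatory element, were found in 1 of the 16 enzymes, Hmgcs1, and in 1.40% of tested genes. An LXR response element of direct repeats was in no member's window, in none of the 8920 tested genes and in 4 of all 27025, so its absence here tells nothing about the members. These are matches of letters in short windows, and other forms of the elements were not searched.

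The stretches below are shown to let the boxes be compared between genes that fell (Hmgcs1, Mvk, Nsdhl, Insig1, Fasn), a gene that did not pass (Ebp) and a gene that rose (Mylip). Each lies before the annotated start, is cut where an annotated exon begins and is written 5′ to 3′ in the direction of the gene. Capitals mark CCAAT or its reverse complement ATTGG and, in Hmgcs1, also the match to TCACNCCAC.
Hmgcs1 (chr13:119690101-119690350, plus strand): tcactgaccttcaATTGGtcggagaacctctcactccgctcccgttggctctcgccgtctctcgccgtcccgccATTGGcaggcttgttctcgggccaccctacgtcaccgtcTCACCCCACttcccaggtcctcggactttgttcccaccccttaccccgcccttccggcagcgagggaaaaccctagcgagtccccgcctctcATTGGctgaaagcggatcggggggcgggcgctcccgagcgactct
Mvk (chr5:114444061-114444268, plus strand): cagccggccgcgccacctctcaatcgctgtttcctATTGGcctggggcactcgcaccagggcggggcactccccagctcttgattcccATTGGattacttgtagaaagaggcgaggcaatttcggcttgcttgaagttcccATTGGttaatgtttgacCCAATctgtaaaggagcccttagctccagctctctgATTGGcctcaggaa
Nsdhl (chrX:72918412-72918520, plus strand): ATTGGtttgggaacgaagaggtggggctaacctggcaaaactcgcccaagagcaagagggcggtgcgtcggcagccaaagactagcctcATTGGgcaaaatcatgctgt
Insig1 (chr5:28071162-28071362, plus strand): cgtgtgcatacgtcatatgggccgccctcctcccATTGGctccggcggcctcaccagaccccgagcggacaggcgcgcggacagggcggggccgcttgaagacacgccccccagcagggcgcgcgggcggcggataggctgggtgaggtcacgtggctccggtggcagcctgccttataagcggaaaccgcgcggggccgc
Fasn (chr11:120824548-120824797, minus strand): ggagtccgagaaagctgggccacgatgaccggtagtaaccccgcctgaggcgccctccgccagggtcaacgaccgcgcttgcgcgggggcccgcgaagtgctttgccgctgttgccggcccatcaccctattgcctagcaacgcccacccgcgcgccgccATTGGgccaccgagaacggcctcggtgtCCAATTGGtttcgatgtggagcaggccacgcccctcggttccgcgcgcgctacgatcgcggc
Ebp (chrX:8193513-8193762, minus strand): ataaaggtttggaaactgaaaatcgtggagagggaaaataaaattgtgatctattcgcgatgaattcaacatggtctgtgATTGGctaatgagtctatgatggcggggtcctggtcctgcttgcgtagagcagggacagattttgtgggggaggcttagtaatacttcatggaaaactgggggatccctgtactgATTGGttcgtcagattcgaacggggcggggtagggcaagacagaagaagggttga
Mylip (chr13:45389492-45389741, plus strand): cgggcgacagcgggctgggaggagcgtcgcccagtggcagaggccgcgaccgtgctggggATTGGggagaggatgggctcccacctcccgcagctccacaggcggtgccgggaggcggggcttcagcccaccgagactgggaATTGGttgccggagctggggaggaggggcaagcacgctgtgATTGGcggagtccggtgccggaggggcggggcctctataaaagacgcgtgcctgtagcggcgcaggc

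In these stretches Mvk carries 5 boxes, Hmgcs1 3, Fasn 3 (a pair of them overlapping on opposite strands), Nsdhl and Ebp 2 each and Insig1 1. Mylip, which rose, carries 3, as many as Hmgcs1. The stretches differ in length, and these counts depend on where they are cut. Over the whole windows of 300 bases Hmgcs1 and Nsdhl carry 4 boxes each, Mylip 3 and Ebp 2. These genes were picked for display after their values were seen.

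Of the sterol sensing genes, Srebf2, Srebf1, Scap, Insig1 and Stard4 fell and Insig2 did not pass. Srebf2, which encodes SREBP2 (chromosome 15, 82147181 to 82205379), was 4399, 4189 and 3875 with DMSO and 3339, 3207 and 3208 with GSK-LSD1. DMSO replicate 3 was the lowest of its group but stayed above every GSK-LSD1 library, and the fall was 1.28-fold (log2 fold change -0.35, adjusted p = 1.33e-07 by limma). Srebf1, which encodes SREBP1, was 1639, 1585 and 1450.4 with DMSO and 1319, 1209 and 1185 with GSK-LSD1. It showed the same low DMSO replicate 3 and fell 1.26-fold (adjusted p = 5.77e-06 by limma).

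The ratio of Srebf1 to Srebf2 within a library was 0.372, 0.379 and 0.374 with DMSO and 0.395, 0.377 and 0.370 with GSK-LSD1. These ranges overlapped (p = 0.8 in a two-sided exact permutation test, n = 3 per group). With 3 against 3 that test cannot go below 0.1, so it does not show that the SREBP genes fell alike. The SREBP1a and SREBP1c forms, which start at different promoters, are not separated in values per gene.

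Scap, the sterol-sensing escort of SREBP, was 1591, 1645 and 1448 with DMSO and 1327, 1234 and 1222 with GSK-LSD1. The groups did not overlap, with DMSO replicate 3 again the lowest of its group, and the fall was 1.24-fold (adjusted p = 1.61e-05 by limma). Insig1, the retention protein that is itself a sensitive SREBP target, was 958, 985 and 923 with DMSO and 691, 718 and 701 with GSK-LSD1. Its libraries were tight in both groups, and it fell 1.36-fold (log2 fold change -0.44, adjusted p = 5.82e-08 by limma).

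Insig2, its relative, was 159, 155 and 154 with DMSO and 160.2, 147 and 136 with GSK-LSD1. The groups overlapped, and the log2 fold change of -0.08 had a 95% confidence interval of -0.30 to 0.14. The ratio of Insig1 to Insig2 was 6.02, 6.37 and 5.98 with DMSO and 4.31, 4.89 and 5.14 with GSK-LSD1. All 3 treated libraries were lower, with p = 0.1 by exact permutation, the smallest that 3 against 3 allows. Per kilobase of annotated exon, Insig1 was the more abundant of the pair, at 309 against 44.9 with DMSO. Stard4, which carries cholesterol between membranes and is an SREBP target, was 716, 628 and 726 with DMSO and 524, 508 and 473 with GSK-LSD1. It fell 1.37-fold, without overlap (adjusted p = 7.9e-07 by limma).

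Seen by library, the median deviation of the 6 sterol sensing genes from their DMSO means, in log2, was 0.04, 0.02 and -0.07 in DMSO replicates 1 to 3 and -0.28, -0.37 and -0.38 in the GSK-LSD1 replicates. For the early enzymes it was -0.02, 0.01 and 0.03 with DMSO and -0.65, -0.60 and -0.57 with GSK-LSD1. DMSO replicate 3 was thus the lowest DMSO library for the sensing genes and the highest for the early enzymes. Summed over the 19 sterol enzymes, the values took 0.2396% to 0.2449% of the library total with DMSO and 0.1959% to 0.2004% with GSK-LSD1.

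**Figure D3:**
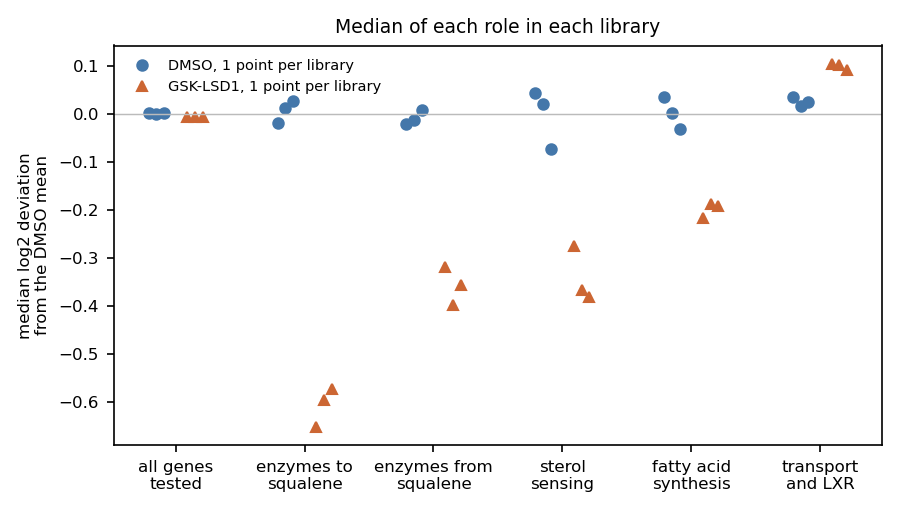
Median over the genes of a role of the log2 deviation from each gene's DMSO mean (y axis), by role (x axis), 1 point per library, 3 per group. The GSK-LSD1 libraries lie lowest for the enzymes up to squalene, at -0.65, -0.60 and -0.57, and above DMSO for transport and LXR genes, while the median of all genes tested stays near 0.

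Of 10 fatty acid genes 7 fell and none rose, with a median log2 fold change of -0.21 and a wide range between members. Scd1, stearoyl-CoA desaturase, which makes oleate from stearate and responds to SREBP1 and LXR (chromosome 19, 44394455 to 44407879), was 849.6, 855 and 861 with DMSO and 351, 408 and 393 with GSK-LSD1. The DMSO libraries were nearly equal, and every GSK-LSD1 library lay far below them. Its mean went from 855 ± 5.72 to 384 ± 29.5 (SD, n = 3), -1.16 in log2 (standard error 0.0654, adjusted p = 6.51e-17 by limma), rank 87 among the falls of the 11588 genes tested.

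Its neighbour and relative Scd2 (chromosome 19, 44293674 to 44306864), the more abundant of the pair, was 11133, 10808 and 10398 with DMSO and 11441, 11077 and 11211 with GSK-LSD1. Those groups overlapped, and the log2 fold change of 0.06 had a 95% confidence interval of -0.03 to 0.15. Under quantile scaling Scd2 passed as higher (0.10, adjusted p = 0.0416 by limma). Per kilobase of exon, Scd2 stood at 1973 and Scd1 at 175 with DMSO, and at 2058 and 78.5 with GSK-LSD1.

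The ratio of Scd1 to Scd2 was 0.0763, 0.0791 and 0.0828 with DMSO and 0.0307, 0.0368 and 0.0351 with GSK-LSD1. It was lower in 3 of 3 treated libraries, a difference of -1.22 in log2, with p = 0.1 by exact permutation, the smallest possible. A further relative, Scd3, rose at a low level, from 28.7 ± 7.14 to 67.4 ± 7.60 (adjusted p = 4.69e-06 by limma). The Scd genes are close copies, so reads could be split among them in counting, and these values are uncertain to that extent.

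Acss2, which makes acetyl-CoA from acetate, was 244, 207 and 226 with DMSO and 123, 151 and 127 with GSK-LSD1. The groups lay far apart, and it fell 1.69-fold (log2 fold change -0.75, adjusted p = 3.9e-07 by limma). Acaca, acetyl-CoA carboxylase, the committed step, was 1469, 1366 and 1372 with DMSO and 1209, 1178 and 1195 with GSK-LSD1. It fell by little but evenly, 1.17-fold. Fasn, fatty acid synthase (chromosome 11, 120805846 to 120824547), was 8241, 7772 and 7200.1 with DMSO and 7155, 6879 and 6788 with GSK-LSD1. The lowest DMSO library, replicate 3, and the highest GSK-LSD1 library nearly touched, and the fall of 1.11-fold (adjusted p = 0.00677 by limma) lost its call under quantile scaling (0.0574), without DMSO replicate 1 (0.0589) and without GSK-LSD1 replicate 3 (0.0549).

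Elongases lengthen fatty acids beyond palmitate. Elovl1, which acts on very long saturated chains, was 2076, 2223 and 2031 with DMSO and 1747, 1702 and 1788 with GSK-LSD1. It fell 1.21-fold without overlap (adjusted p = 2.02e-05 by limma). Elovl6, the elongase that takes palmitate to stearate, fell 1.14-fold, from 1479 ± 33.0 to 1294 ± 22.8. Elovl5, which elongates polyunsaturated chains, did not pass, with a log2 fold change of -0.08 (-0.17 to 0.01), although its 3 GSK-LSD1 libraries lay below the DMSO libraries. The ratio of Elovl6 to Elovl5 was 0.658, 0.641 and 0.643 with DMSO and 0.599, 0.585 and 0.611 with GSK-LSD1, lower in all 3 treated libraries (p = 0.1 by exact permutation).

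Fads1 and Fads2 are the front-end desaturases of polyunsaturated fatty acids and lie side by side on chromosome 19. Fads2 was 4163, 4404 and 4135 with DMSO and 3489, 3689 and 3694 with GSK-LSD1. It fell 1.17-fold without overlap (adjusted p = 9.7e-05 by limma). Fads1 was 2828, 2858 and 2588 with DMSO and 2731, 2773 and 2761 with GSK-LSD1, with the treated libraries inside the DMSO range and a 95% confidence interval of -0.09 to 0.09 for the log2 fold change. The ratio of Fads1 to Fads2 was 0.679, 0.649 and 0.626 with DMSO and 0.783, 0.752 and 0.747 with GSK-LSD1. It was higher in each treated library (p = 0.1 by exact permutation).

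**Figure D4:**
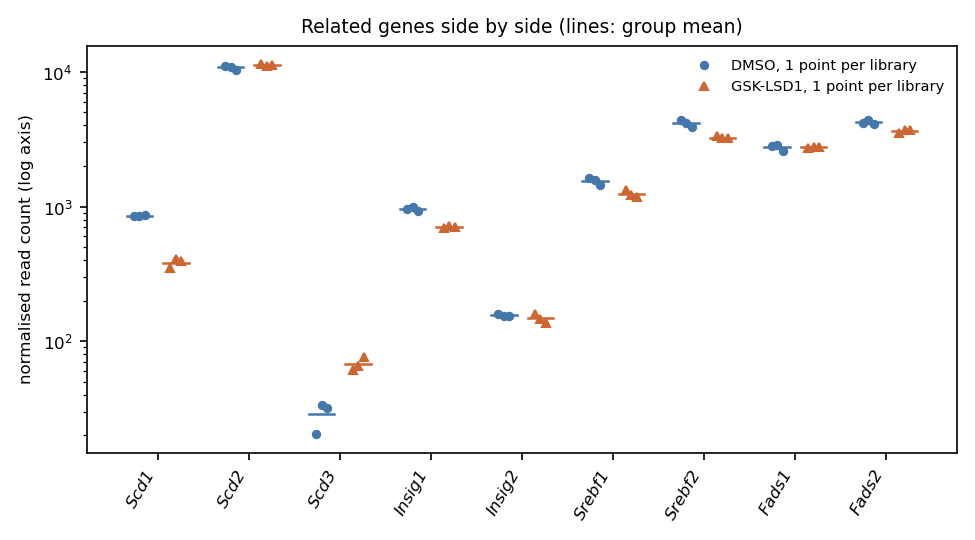
Normalised read count on a log axis (y) in each of 3 DMSO and 3 GSK-LSD1 libraries for related genes (x), with group means as lines. Scd1 drops and Scd3 rises, while Scd2 overlaps between groups. Insig1 and Fads2 drop while Insig2 and Fads1 overlap between groups.

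Of 7 tested transport and LXR genes 3 rose, 1 fell and 3 did not pass, with a median log2 fold change of 0.05. Mylip, the ubiquitin ligase IDOL, which marks lipoprotein receptors for breakdown and is an LXR target (chromosome 13, 45389742 to 45412022), was 229, 201 and 215 with DMSO and 273, 297 and 276 with GSK-LSD1. Every treated library was above every DMSO library, a rise of 1.31-fold (log2 fold change 0.39, adjusted p = 0.000451 by limma). Npc1 and Npc2 together move cholesterol out of the lysosome. Npc1 was 394, 420.1 and 418 with DMSO and 494, 489 and 456 with GSK-LSD1, and rose 1.17-fold. Npc2 was 1426, 1496 and 1520.0 with DMSO and 1592, 1758 and 1636 with GSK-LSD1, and rose 1.12-fold. Both were without overlap, with adjusted p of 0.00897 and 0.00821 by limma, and the call of Npc2 was lost without GSK-LSD1 replicate 2 (0.0959).

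The cholesterol exporters Abcg1 and Abca1 are well-known LXR targets. Abcg1 was 176, 161 and 172 with DMSO and 149, 120.1 and 131 with GSK-LSD1. It fell 1.27-fold without overlap (adjusted p = 0.0108 by limma), a call that was lost without GSK-LSD1 replicate 2 (0.0746). Abca1 was 26.4, 31.7 and 26.9 with DMSO and 31.6, 15.5 and 27.3 with GSK-LSD1. It was low in all libraries, the groups overlapped, and its wide interval of -0.75 to 0.28 spans changes of either sign, so none was detectable at this depth.

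Soat1, which esterifies cholesterol for storage, was 2334, 2143 and 2359 with DMSO and 2275, 2443 and 2341 with GSK-LSD1. It did not pass (0.05, -0.05 to 0.14). Of the receptors themselves, Nr1h2 (LXR beta) was 896, 908 and 804 with DMSO and 849, 821 and 925 with GSK-LSD1. The groups overlapped, with a log2 fold change of -0.01 (-0.13 to 0.11). Nr1h3 (LXR alpha) was 6.84, 4.96 and 3.98 with DMSO and 1.02, 1.03 and 1.95 with GSK-LSD1, which amounts to 16 reads summed over DMSO and 4 over GSK-LSD1 where the smallest value is 1 read. It was too low for the main test, and with all genes tested it passed as lower (adjusted p = 0.018 by limma).

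**Figure D5:**
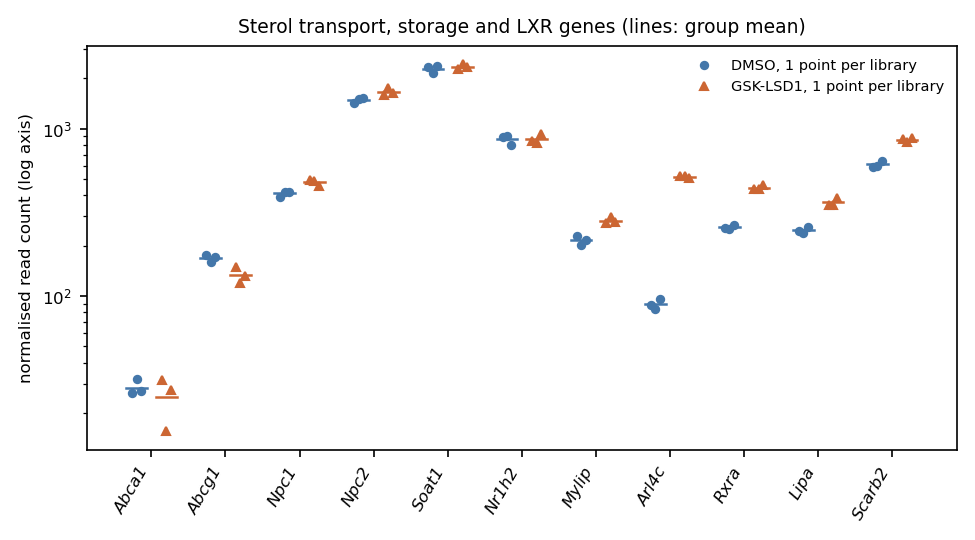
Normalised read count on a log axis (y) in each library for 7 tested transport and LXR genes and for Arl4c, Rxra, Lipa and Scarb2 of the wider pathway (x), 3 libraries per group, lines at group means. Mylip, Npc1 and Npc2 rise modestly, Abcg1 drops, and Arl4c shows the widest gap between groups.

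Other genes of these pathways, from lists of general knowledge, were counted for comparison. These lists were chosen with earlier results of these data known, so their shares are a description and not an independent check. Of 13 further genes of sterol and isoprenoid synthesis and uptake, 7 fell (53.8%, against 20.5% of all genes), 1 rose and 5 did not pass. Pdss1, which builds the tail of coenzyme Q, fell from 249.9 ± 4.60 to 194 ± 8.57, and Fntb, a farnesyltransferase subunit, from 303 ± 35.1 to 236 ± 24.9. Dhdds, which makes dolichol precursors, rose from 701 ± 26.8 to 810.2 ± 24.7. All 3 act on branches of the route other than the one to cholesterol.

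Of 10 listed genes that process SREBP or degrade its partners, 1 fell, none rose and 9 did not pass, against 20.5% lower and 20.6% higher among all genes tested. The one that fell was Rnf145, a ubiquitin ligase that acts on SCAP, from 673 ± 12.5 to 552 ± 11.2. The proteases that release SREBP, Mbtps1 and Mbtps2, had log2 fold changes of 0.01 (-0.08 to 0.11) and 0.02 (-0.09 to 0.14).

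Among 19 tested further genes of fatty acid metabolism, 5 fell, 4 rose and 10 did not pass. The shares, 26.3% lower and 21.1% higher, were near the 20.5% and 20.6% of all genes tested, so the members below are given as values and not as a result about the list. Slc25a1, the citrate carrier that exports carbon from mitochondria for lipid synthesis, fell from 1223 ± 60.4 to 906 ± 27.8, and Me1, malic enzyme, a source of NADPH, fell from 1110.3 ± 69.9 to 915 ± 54.2. Acly, which splits citrate into acetyl-CoA in the cytosol, fell from 4715 ± 153 to 4041 ± 92.6. Hsd17b12, of the elongation cycle, fell 1.17-fold. The acyl-CoA synthetases Acsl1 and Acsl3 rose 1.37-fold and 1.22-fold, and Fads3 rose 1.26-fold, with its call lost under quantile scaling (adjusted p = 0.0872) and without GSK-LSD1 replicate 1 (0.116, both by limma).

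Sterol transport, storage and LXR genes outside the 8 above rose more often than they fell: of 20 tested, 10 rose (50%, against 20.6% of all genes), 1 fell and 9 did not pass, with a median log2 fold change of 0.21. Arl4c, a small GTPase and LXR target, was 87.9, 84.2 and 96.6 with DMSO and 521, 521 and 506 with GSK-LSD1. It was the widest change in this list, 5.76-fold (adjusted p = 2e-22 by limma). Rxra, which encodes the partner receptor RXR alpha, rose from 257 ± 7.06 to 445 ± 16.8, Lipa, the lysosomal acid lipase, from 248 ± 9.81 to 363 ± 18.8, and Scarb2, a lysosomal membrane protein, from 612 ± 27.5 to 862 ± 22.1. Apoe, an apolipoprotein and LXR target, was 58.6, 50.5 and 43.8 with DMSO and 81.6, 68.3 and 78.8 with GSK-LSD1. It was higher in every treated library, by 0.58 in log2 (adjusted p = 0.00427 by limma), and its call was lost under quantile scaling (0.37, adjusted p = 0.0667). Abca7, a transporter of the same family as Abca1, rose from 1285 ± 22.4 to 1598 ± 122. The fall was that of Scarb1, the HDL receptor, from 1115 ± 83.7 to 966 ± 61.6, and its call was lost without DMSO replicate 2 (adjusted p = 0.0532) or GSK-LSD1 replicate 1 (0.0697, both by limma).

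Markers of other cell states moved in the same libraries. For the counts below, 20.6% of all genes tested rose and 20.5% fell. The marker lists too were chosen with earlier results of these data known. The monocyte and macrophage list had values for 11 of 15 genes, of which 9 were tested and 7 rose, and it took 0.009344% to 0.009917% of the library total with DMSO and 0.02588% to 0.02816% with GSK-LSD1. In the neutrophil list 6 of 7 tested genes rose and 1 fell, with 0.04828% to 0.05229% of the library total with DMSO and 0.2233% to 0.2302% with GSK-LSD1. Mmp8 alone made up most of the difference in that sum, going from 2376 ± 61.2 to 15579 ± 296. The gene that fell was Ngp, from 46.5 ± 11.7 to 18.9 ± 4.63. All 6 tested erythroid genes fell, and that list took 0.002324% to 0.002767% of the library total with DMSO and 0.0005415% to 0.0007312% with GSK-LSD1. Mast cell and basophil genes took 0.3233% to 0.3424% of the library total with DMSO and 0.4158% to 0.4298% with GSK-LSD1, with 3 of 8 higher and 1 lower. Most of the difference in that sum was 1 gene, Cpa3, which rose from 14319.6 ± 982 to 23028 ± 597, while Fcer1a fell. All 11 myeloid progenitor markers had values, with Myb and Mpo the highest before any correction for gene length, and 4 rose and 5 fell. The widest changes were those of Cd34, 5.63-fold higher, and Ms4a3, 2.22-fold lower. Csf3r, which rose, and Cebpa, which did not pass, are in this list. Both were also expressed from retrovirus, and whether reads of the vector entered their values is not known. Kit was low at 29.6 ± 4.82 with DMSO.

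The adipocyte hormone Adipoq was at 4.14 or less in every library, and the 4 B cell genes with values reached at most 4.08. Of the T and NK cell genes 2 were tested and 1 fell, and of the stroma and adipocyte genes 2 were tested and both rose. With 2 tested genes each, these lists are too small to set against the shares of all genes tested. All 15035 genes with a row had a value above 0 in some library, so having a row says little about a marker. Listed markers without a row were 4 monocyte and macrophage, 1 neutrophil, 4 erythroid, 5 T and NK, 3 B, and 5 stroma and adipocyte genes. Why these have no row was not tested. The part of these other lists in the sterol and fatty acid results was not tested.

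Some values depend on how reads were assigned. In GENCODE M21, exons of 12 of the 43 genes overlap a gene on the other strand, among them Fdft1 with Ctsb, Cyp51 with Akap9, Srebf1 with Rai1, Acss2 with Ggt7 and Gss, Elovl1 with Cdc20 and Npc1 with Rmc1, and exons of 6 overlap a model on the same strand, such as Tm7sf2 with Vps51. Whether counting used strand is not given in the sources used here, and reads of such pairs may be mixed in the values above.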

How the data were processed

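The 6 RNA-seq libraries, 3 per group, were assigned by title. The deposited values are a normalised signal per gene: per the values themselves, read counts divided by a factor per library, since low values are whole multiples of the smallest (0.973 to 1.04). The submitters' processing notes list STAR, DESeq2, mm10 and GRCm38 with neither version nor role. Which program counted reads, and whether by strand, is not given in the sources used here. Of 15035 rows, 22 carry a date in place of a symbol; they were tested and are not named.

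Genes with a value of at least 10 in at least 3 libraries were tested (11588; 3447 were left out) on log2(value + 1) in limma 3.58.1 under R 4.3.3, with a mean-variance trend and no term for replicate; p-values were two-sided, adjusted by Benjamini-Hochberg over the genes tested and called under 0.05. Count models were not used, because 2 DMSO libraries have a smallest value too close to 1 for the criterion on recovered reads. The script was tested on simulated data, where it recovered 48% of 1.25-fold changes, 84.4% of 1.5-fold changes and 96.4% of 2-fold changes. Of its calls there, 4.86% were of unchanged genes. A gene that did not pass may therefore still have changed by a small fold. Ratios within libraries were compared by exact permutation, for 7 ratios, of which Scd3 to Scd2 and Scap to Insig1 are not described (p = 0.1 each); adjusted over the 7, no p is below 0.117. Positions, exon lengths (the union of annotated exons) and overlaps are from GENCODE M21 and promoter windows from RefSeq, both GRCm38; Stard4, Npc1, Fads1, Abcg1, Fdft1, Scd1, Scd2, Sqle and Fdps had no window.

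The members and the gene lists were chosen with earlier results of these data known. All 43 members are named. Values in every library were to be given for sterol sensing and LXR genes and for the 5 largest changes per direction past the threshold in each other role, and from each further list the 4 largest changes per direction were to be named. Some genes that this rule selects from the further lists are not reported here. Beyond the rule, and after values were seen, Fntb, Scarb2, Abca7, Mbtps1 and Mbtps2 are named, and Hmgcs1, Dhcr7, Tm7sf2, Lbr, Fasn, Scd2, Fads1, Abca1 and Soat1 are given by library. Single genes of the marker lists were also named after their values were seen. Alternatives were the pseudocount, the filter, the scaling, weights, a replicate block and leaving out each library.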

Additional observations from a re-analysis of the deposited data

How the results depend on the processing

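Across 15 alternatives, 36 of the 42 tested members kept their side of the threshold in every alternative that tested them, among them 26 of the 29 that fell and 2 of the 3 that rose; Tm7sf2, Lbr, Fasn, Scd2, Abcg1 and Npc2 did not, as given above. The counts of 16 sterol enzymes, 5 sterol sensing genes and 7 fatty acid genes lower stayed within 1.5 times under each. No scaling moved the median of all genes by over 0.1 in log2. With quantile scaling 5 members rose, 1 of them a sterol enzyme and 1 a fatty acid gene, and the medians were -0.167 (fatty acid) and 0.0744 (transport and LXR). At the same total per library 1 sterol enzyme rose and the medians were -0.391 (sterol enzymes), -0.188 and 0.0665. With library weights 1 sterol enzyme rose, with medians of -0.425 and 0.0542. A pseudocount of 5 gave -0.396 for sterol enzymes. Without the filter 2 transport and LXR genes were lower, and their median was 0.0196; at a mean value of at least 50 it was 0.106. Leaving out each library in turn, the sterol enzyme median was -0.444 to -0.369, the fatty acid median was -0.223 to -0.187, the transport and LXR median was 0.0244 to 0.0724, the number of sterol enzymes that rose was 0 to 1 and the number of transport and LXR genes that fell was 0 to 1. The replicate numbers do not pair the libraries by the labels, and deviations of same-numbered libraries correlated at -0.0241, -0.0276 and -0.00771; with a replicate block 29 members fell and 3 rose, and no member's call changed. The causes of these shifts were not tested. Abca1 and Nr1h3 are limited by low reads.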

Other observations

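The following genes were picked after their values were seen, and no group of genes was tested. Plin2, which coats lipid droplets, rose from 609 ± 24.3 to 704 ± 15.4 and Nceh1, a cholesteryl ester hydrolase, from 1344 ± 31.7 to 1621 ± 32.8 (SD, n = 3; adjusted p = 0.00531 and 2.82e-05 by limma). Soat2, the esterifying enzyme best known from liver and intestine, was 398, 428 and 406 with DMSO and 519, 406 and 506 with GSK-LSD1. The groups overlapped, and its call (adjusted p = 0.032) was lost in 5 alternatives, with adjusted p up to 0.22. Thrsp, a lipogenic gene of liver and fat, was below the minimum level for the test, with values of 0.977, 4.96 and 1.99 with DMSO and 15.3, 13.5 and 9.73 with GSK-LSD1, every treated library being above every DMSO library.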
